A study of Mus musculus with 4 samples.

Results

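The SOCS, Cish and Pim feedback genes were followed across all 4 groups of a mouse regulatory T cell study. The set was defined by gene name: every probe whose gene name in the scanner files was Cish, Socs1 to Socs7, Pim1 or Pim2, which gave 10 genes and 16 probes among the 34815 gene names with a value on every array. The study compared regulatory T cells (Tregs) from the spleen and thymus of male C57BL/6 mice that were either wild type (WT) or of a genotype labelled deltaDC, called dDC on the arrays. The labels name no targeted gene, driver line or age for deltaDC, a name used in the field for mice that lack dendritic cells. Both organs of both genotypes were sampled, which makes 4 groups. For each, cells of 3 mice were pooled, enriched for CD4 T cells (in thymus by removing CD8-positive cells), sorted as live CD4+CD25+ cells with no selection on Foxp3, and RNA from them was hybridised to 1 array. With 1 array per group no difference between 2 groups could be tested, and the errors below are those between repeated spots. Of the 10 genes only Socs2 was represented by a repeated probe. A probe spotted once took the error of other, repeated probes of like signal.

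Cytokines such as IL-2 act on T cells through receptors that carry JAK kinases, which phosphorylate STAT transcription factors. STAT factors switch on genes whose products then restrain the same receptors, and the SOCS family and its relative CIS (gene Cish) are the best known of these brakes. They bind phosphorylated receptors or JAKs through an SH2 domain and recruit a ubiquitin ligase through a SOCS box. The Pim genes encode serine/threonine kinases that STAT5 also induces and that favour survival and growth. Tregs depend on IL-2 and STAT5, so these genes are commonly read as signs of recent cytokine signalling.

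Values are given as scaled signals, which are background-subtracted probe intensities multiplied so that every array has the same 75th percentile of 388. A log2 difference of 1 is a 2-fold change. All 10 genes were well above background on all 4 arrays by their brightest probe. Levels are compared only between arrays for the same probe, because probes differ in brightness. Since the RNA came from pools of sorted cells, a lower signal from fewer cells of a type and one from less RNA per cell cannot be told apart.

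Probe sequences are shown for Socs2 and Pim1, as both genes carry the organ difference described next and Socs2 was read by several probes. The Socs2 probe shown is not the one behind the Socs2 values given first, which was the 10-spot probe A_51_P107362 at chr10:94875066-94875125, but a neighbour on the same transcript with values of its own further on. It lies at chr10:94875468-94875527 (minus strand) and the Pim1 probe at chr17:29630740-29630799 (plus strand), both on mm9. Each is 60 bases long and printed 5′ to 3′ with no base marked.
Socs2 probe A_55_P1992838: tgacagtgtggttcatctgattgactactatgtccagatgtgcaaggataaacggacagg
Pim1 probe A_52_P530291: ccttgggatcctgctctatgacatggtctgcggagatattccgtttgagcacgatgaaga

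The promoters of Socs3 and Pim1 are shown because these genes were at least 2-fold lower in thymus in both genotypes, as was Socs2. RefSeq promoters on GRCm38.p6 were matched for 6 of the 10 genes. Socs2, Socs5, Socs6 and Socs7 were not matched. The 250 bases before the transcription start were searched for TTCNNNGAA, the motif of most STAT factors, which reads the same on both strands. Capitals mark it. The Socs3 window is chr11:117969367-117969616 (minus strand) and the Pim1 window, for the first of 2 annotated starts, is chr17:29490535-29490784 (plus strand).
Socs3 promoter: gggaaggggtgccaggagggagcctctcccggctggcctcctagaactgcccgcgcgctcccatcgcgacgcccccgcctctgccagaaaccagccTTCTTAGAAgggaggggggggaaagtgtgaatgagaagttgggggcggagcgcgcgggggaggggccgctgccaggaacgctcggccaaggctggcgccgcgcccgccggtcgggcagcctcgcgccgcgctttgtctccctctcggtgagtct
Pim1 promoter: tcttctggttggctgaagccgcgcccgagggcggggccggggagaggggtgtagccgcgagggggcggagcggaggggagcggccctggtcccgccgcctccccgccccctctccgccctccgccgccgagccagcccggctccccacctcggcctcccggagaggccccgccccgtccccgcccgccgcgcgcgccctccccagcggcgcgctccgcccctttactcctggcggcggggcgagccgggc
Among the matched genes only Socs3 held the motif, once, starting at position -154. Of 32851 promoter windows of this length, 7.02% held it. The windows of Cish, Socs1, Socs4, Pim1 and Pim2 do not contain these letters, which says nothing of sites elsewhere.

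The organs were compared first, with thymic Tregs set against splenic Tregs of the same genotype. By the brightest probe of each gene, Socs3, Pim1 and Socs2 were lower in thymic Tregs by at least 2-fold in WT mice and again in deltaDC mice. The other 7 genes stayed within 2-fold in both. Of all genes measured on both arrays, 4.5% were at least 2-fold lower in the thymus of WT mice and 5.48% in that of deltaDC mice. None of the 10 was at least 2-fold higher in thymus, against 5.35% and 4.94% of all genes, so that 9.85% and 10.4% of genes differed in either direction. The median log2 difference of the 10 genes was -0.43 in WT and -0.24 in deltaDC, against -0.13 and -0.02 over all measured genes.

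Socs3, whose protein blocks JAK kinases at receptors that signal through gp130, had the widest range. In spleen its scaled signal was 13379 in WT and 14154 in deltaDC, and in thymus it was 3314 in WT and 3337 in deltaDC. Both spleen arrays were brighter than both thymus arrays. How many of all genes separate the organs in this way was not counted. The log2 difference between thymus and spleen was -2.01 ± 0.08 (spot error) in WT and -2.08 ± 0.08 in deltaDC, or 4.04-fold and 4.24-fold. Of the measured genes, 2.13% and 2.44% differed between the organs by as much in either direction. The probe lies at chr11:117827480-117827539 on mm9.

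Pim1, the kinase most often used as a readout of STAT5 activity, had spleen signals of 5269 in WT and 5473 in deltaDC and thymus signals of 2086 and 2301. Here too both spleen arrays were brighter than both thymus arrays. The log2 difference was -1.34 ± 0.08 in WT and -1.25 ± 0.08 in deltaDC. The second Pim kinase did not share this pattern. Pim2 gave 411 (WT) and 607 (deltaDC) in spleen and 454 and 467 in thymus. Its organ differences were 0.14 ± 0.12 in WT and -0.38 ± 0.11 in deltaDC, and the deltaDC spleen array stood above the other 3. Pim3, the remaining Pim kinase, which is not in the set, gave 902 and 693 in spleen and 659 and 689 in thymus, with WT spleen highest.

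Socs2, known for limiting growth hormone signalling and induced by STAT5, was represented by a probe spotted 10 times. In spleen the mean signal was 1084 in WT (spots from 1022 to 1154, median 1072) and 1331 in deltaDC (1243 to 1419, median 1365). In thymus it was 501 in WT (467 to 565, median 494) and 429 in deltaDC (412 to 458, median 424). No 2 arrays overlapped in their spots. The log2 difference between thymus and spleen was -1.11 ± 0.04 in WT and -1.63 ± 0.03 in deltaDC. In the authors' own normalized matrix the WT difference was -0.93, short of 2-fold.

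**Figure D1:**
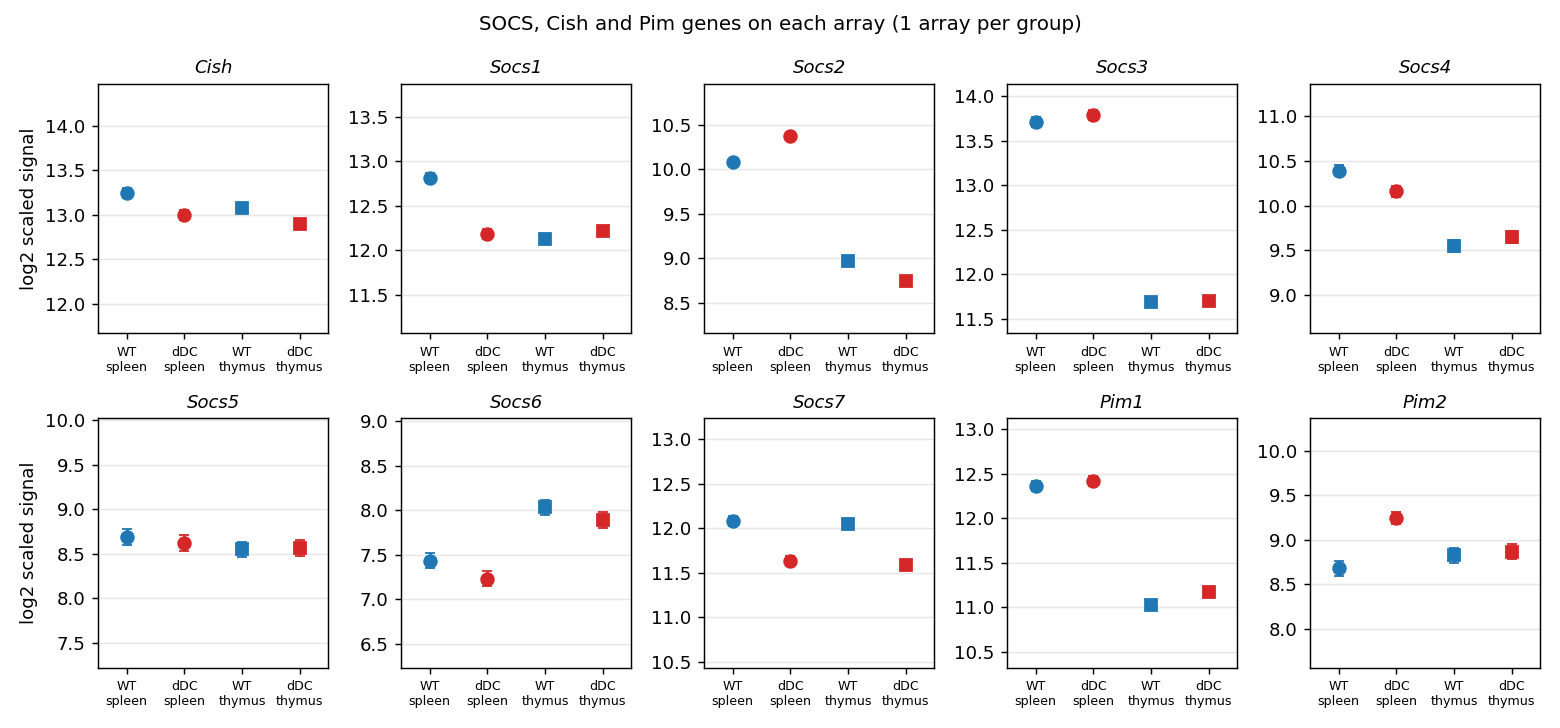
Log2 scaled signal of each gene on the 4 arrays. Circles are spleen, squares thymus, blue WT and red deltaDC, and bars are the spot error of the array's value; every panel spans the same 2.8 log2 units. Socs2, Socs3 and Pim1 lie high on both spleen arrays and low on both thymus arrays, while Cish and Socs5 are nearly level.

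Among the remaining brakes, Socs4, which is linked to control of the EGF receptor, had signals of 1342 and 1144 on the WT and deltaDC spleen arrays and of 748 and 802 on the thymus arrays. The log2 differences of -0.84 ± 0.09 in WT and -0.51 ± 0.09 in deltaDC were short of 2-fold. Socs6, which acts on insulin and Kit receptor signalling, ran the other way by its brightest probe, with 173 and 150.2 in spleen and 262 and 238 in thymus. Its differences were 0.60 ± 0.12 and 0.66 ± 0.12, although its other probes did not all share them, as given below.

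Cish was nearly level across the 4 groups. CIS binds cytokine receptors and dampens IL-2 and T cell receptor signals, and its gene is a direct STAT5 target. Spleen signals were 9704 in WT and 8175 in deltaDC, and thymus signals 8615 and 7635. The organ differences were -0.17 ± 0.08 in WT and -0.10 ± 0.08 in deltaDC. Socs5, a brake on IL-4 receptor signalling, was flat as well, with 413 and 394 in spleen, 375 and 379 in thymus, and no pair of arrays further apart than 0.14 log2 units. Socs7 gave 4315 (WT) and 3162 (deltaDC) in spleen and 4213 and 3079 in thymus. Its organ differences of -0.03 ± 0.08 and -0.04 ± 0.08 were within the spot error, and their sign changed with the normalization.

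Socs1, the strongest inhibitor of JAK kinases in the family and a brake on interferon-gamma and IL-2 signals, separated a single array from the rest. WT spleen gave 7199.8, deltaDC spleen 4642, and the thymus arrays 4487 (WT) and 4771 (deltaDC). The last 3 lay within 0.09 log2 units of each other, about the spot error. The organ difference was therefore -0.68 ± 0.08 in WT and 0.04 ± 0.08 in deltaDC. The WT organ comparison and the genotype comparison in spleen share the WT spleen array, so they are not separate evidence for Socs1.

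**Figure D2:**
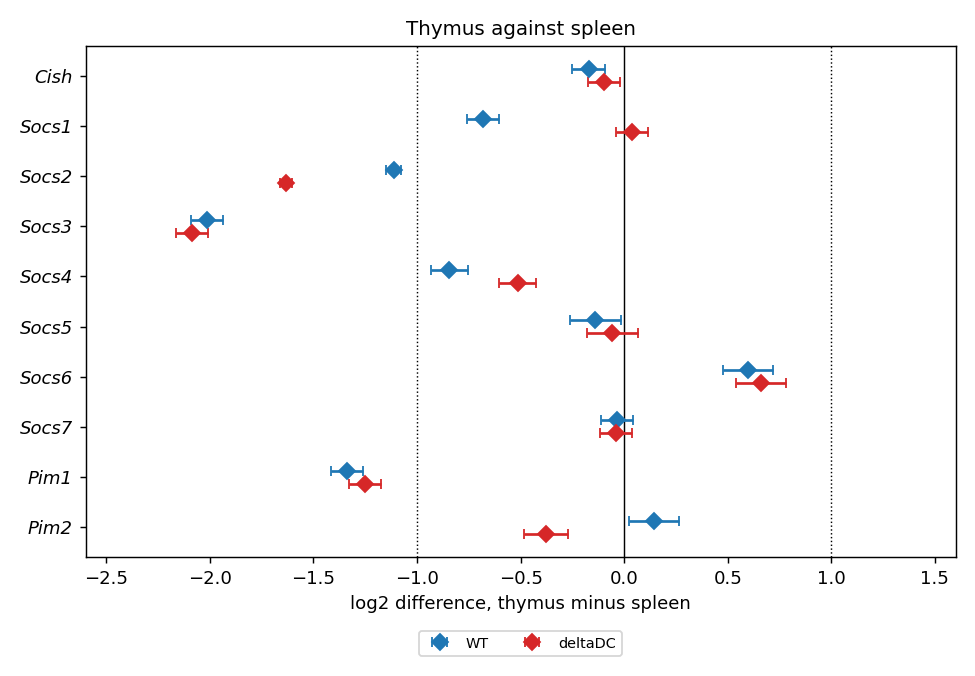
Log2 difference between thymus and spleen (thymus minus spleen) for each gene in WT (blue) and deltaDC (red). Bars are spot errors and dotted lines mark 2-fold. Socs3, Socs2 and Pim1 lie beyond -1 in both genotypes, and Socs6 lies at 0.60 and 0.66.

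The organ effect could be tested only by using both genotypes together, in a limma fit with terms for organ and genotype that left 1 residual degree of freedom. By it none of the 10 genes passed an adjusted p of 0.05, against 0.758% of the 19396 genes tested (0.701% higher and 0.0567% lower in thymus). In this limma fit Socs3 had an organ effect of -2.05 ± 0.16 (SE) and an adjusted p of 0.0607, Pim1 -1.29 ± 0.16 with 0.103, and Socs2 -1.37 ± 0.21 with 0.133. With normexp background correction the limma adjusted p was 0.014 for Socs3 and 0.0354 for Pim1, while over all settings it ranged from 0.014 to 0.112 for Socs3, from 0.0354 to 0.203 for Pim1 and from 0.0523 to 0.218 for Socs2. The other 7 genes had limma adjusted p-values of 0.209 (Socs6), 0.222 (Socs4), 0.534 (Socs1), 0.658 (Cish), 0.746 (Socs5), 0.778 (Pim2) and 0.908 (Socs7).

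Markers of immature thymocytes moved with the organ: of 10, 6 and 5 were above background on the WT and deltaDC spleen arrays and 10 on each thymus array. Their summed scaled signal was 20144 to 21160 in spleen and 80655 to 81532 in thymus. B cell markers were also higher in thymus, with sums of 2217 (WT) and 2086 (deltaDC) in spleen and 4118 and 8635 in thymus, and 5 and 7 of 10 above background in spleen against 8 and 9. Proliferation markers followed the organ in WT, at 15298 in spleen and 34862 in thymus, but not in deltaDC, at 33535 and 31425. Effector Treg markers were lower in thymus in deltaDC, at 141582 in spleen and 36536 in thymus, and were 33759 and 37546 in WT. The part of these markers in the organ differences was not tested. All 11 Treg markers, Foxp3 among them, were above background on every array, with sums of 154140 to 175631, and so were all 10 markers of T cells in general. Of the 11, 1 was at least 2-fold lower in thymus in WT (Folr4) and 1 was higher in deltaDC (Gpr83). Of all measured genes, 4.5% were lower in WT and 4.94% higher in deltaDC.

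Genotypes were compared next, with deltaDC set against WT within an organ. By their brightest probes, none of the 10 genes differed by 2-fold in spleen or in thymus, where 8.18% and 1.69% of all measured genes did. A dimmer Socs6 probe, given below, was 1.70 ± 0.24 higher on deltaDC in thymus. In spleen 4.95% of genes were higher and 3.23% lower on deltaDC, and in thymus 0.868% and 0.82%. The median log2 difference of the 10 was -0.14 in spleen and 0.01 in thymus, against -0.06 and 0.05 over all genes. Socs3 and Pim1, which separated the organs, were close between genotypes: Socs3 differed by 0.08 ± 0.08 in spleen and 0.01 ± 0.08 in thymus, and Pim1 by 0.05 ± 0.08 and 0.14 ± 0.08.

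In spleen the largest differences among the 10 were those of Socs1 and Pim2. Socs1 was lower on the deltaDC array by 0.63 ± 0.08 on the log2 scale (a difference of -0.63, or 1.55-fold), and 18.2% of measured genes differed by as much. Pim2 was higher there by 0.57 ± 0.11, or 1.48-fold, and 21.2% of genes differed by as much. In thymus the same genes differed by 0.09 ± 0.08 and 0.04 ± 0.12, the first with its sign turned in the authors' matrix, at -0.02. Socs2 was 0.30 ± 0.03 higher on the deltaDC array in spleen and had a difference of -0.23 ± 0.03 in thymus.

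Socs7, whose protein is linked to insulin receptor signalling, was lower on the deltaDC array in each organ. The log2 difference was -0.45 ± 0.08 in both, from signals of 4315 and 4213 in WT and 3162 and 3079 in deltaDC. Of measured genes, 28.7% in spleen and 11.5% in thymus differed by as much. Cish had smaller differences of the same sign, -0.25 ± 0.08 in spleen and -0.17 ± 0.08 in thymus. By the limma fit the genotype effect of Socs7 was -0.45 ± 0.16 (SE) with an adjusted p of 0.7895, the lowest of the 10 genes, and the highest was 0.98 for Socs2. That fit called 0.0% of genes for genotype (0 of 19396, with 1062 at an unadjusted p under 0.05).

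**Figure D3:**
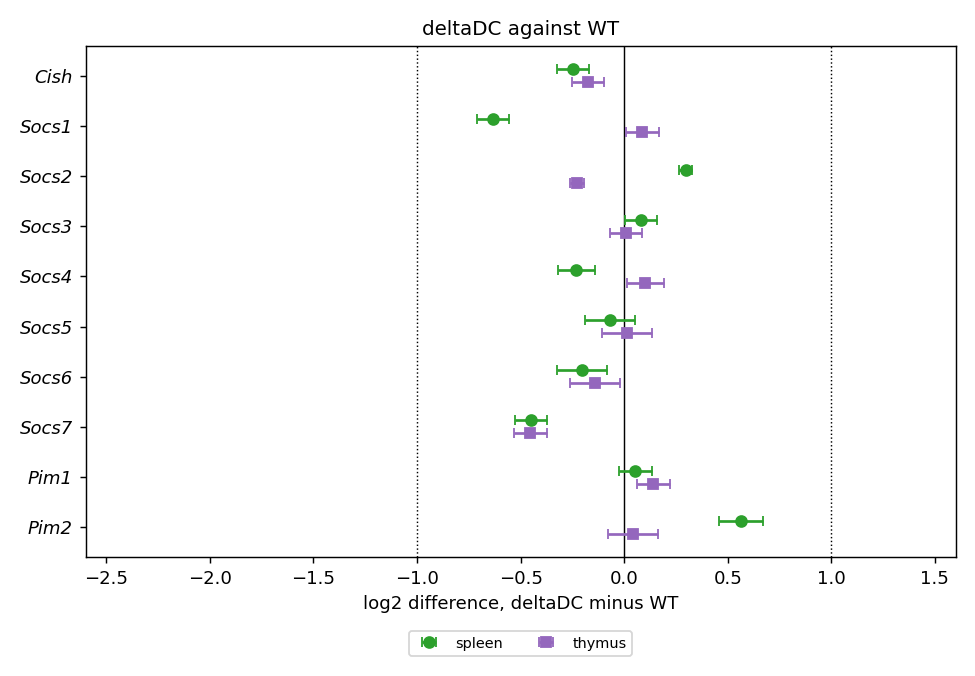
Log2 difference between genotypes (deltaDC minus WT) for each gene in spleen (green circles) and thymus (purple squares). Bars are spot errors and dotted lines mark 2-fold. All points lie within 2-fold; Socs7 sits at -0.45 in both organs and Socs1 at -0.63 in spleen alone.

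Markers of other cells or states moved with genotype in both organs. In spleen the summed signal of 12 effector Treg markers was 33759 on WT spleen and 141582 on deltaDC spleen, and that of 12 proliferation markers was 15298 and 33535. That of 10 natural killer cell markers was 4128 and 30921, with 7 and 10 of them above background, and that of 10 neutrophil markers was 183 and 10045, with 2 and 9 above background. Of 10 conventional dendritic cell markers, 0 and 5 were above background on these arrays, with sums of 76.1 and 301.9. On the WT and deltaDC thymus arrays 7 and 6 of them were above background, with sums of 713.2 and 713.1. Of this list, Xcr1, Clec9a and Ccl22 were dim on all 4 arrays. Of 11 Treg markers in spleen, 2 were at least 2-fold lower on deltaDC (Gpr83 and Lrrc32) and 0 higher. Of all measured genes, 3.23% were lower and 4.95% higher there. Il2ra, an IL-2 receptor chain, differed by -0.90 ± 0.08 in spleen, from signals of 28920 in WT and 15521 in deltaDC. In thymus 0.868% of all measured genes were at least 2-fold higher on deltaDC. Of 8 measured B cell markers 6 were, with sums of 4118 in WT and 8635 in deltaDC. Of 6 neutrophil markers 5 were, with sums of 959 and 2469.5. None of the effector Treg or proliferation markers measured there reached 2-fold. The part of these cells in the differences of Socs1, Socs2, Socs7 and Pim2 was not tested.

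Several probes were available for Socs2 and Socs6. The 3 probes of the main Socs2 transcript gave organ differences of -1.11, -1.04 and -1.12 in WT and of -1.63, -1.61 and -1.67 in deltaDC. They share a transcript, so they are repeat readings of the same RNA. The remaining probe, at chr10:94848005-94848064 on mm9 and assigned to another transcript, was dim, with 63.1 (WT) and 43.0 (deltaDC) in spleen and 39.3 and 24.4 in thymus. Its organ differences were -0.68 ± 0.24 and -0.82 ± 0.39, in the same direction.

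The Socs6 probes went different ways. Probe A_55_P1969251 was the brightest, as given above. Probe A_55_P2034903, assigned to the same transcript, gave 47.5 (WT) and 55.1 (deltaDC) in spleen and 27.6 and 31.1 in thymus, with organ differences of -0.78 ± 0.39 and -0.82 ± 0.39. Probe A_52_P135421, assigned to another transcript, gave 28.5 and 33.3 in spleen and 38.2 and 124 in thymus. Its organ differences were 0.42 ± 0.39 in WT and 1.90 ± 0.24 in deltaDC, of the same sign as those of the brightest probe. It was higher on deltaDC thymus than on WT thymus by 1.70 ± 0.24 log2 units, where the brightest probe differed by -0.14 ± 0.12. The remaining Socs6 probe was not well above background on any array. The probes of Socs6 therefore differ in direction between organs, and with the median over probes the WT difference was -0.18. By that median the Socs6 difference between genotypes in thymus was 0.94, with its sign turned.

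**Figure D4:**
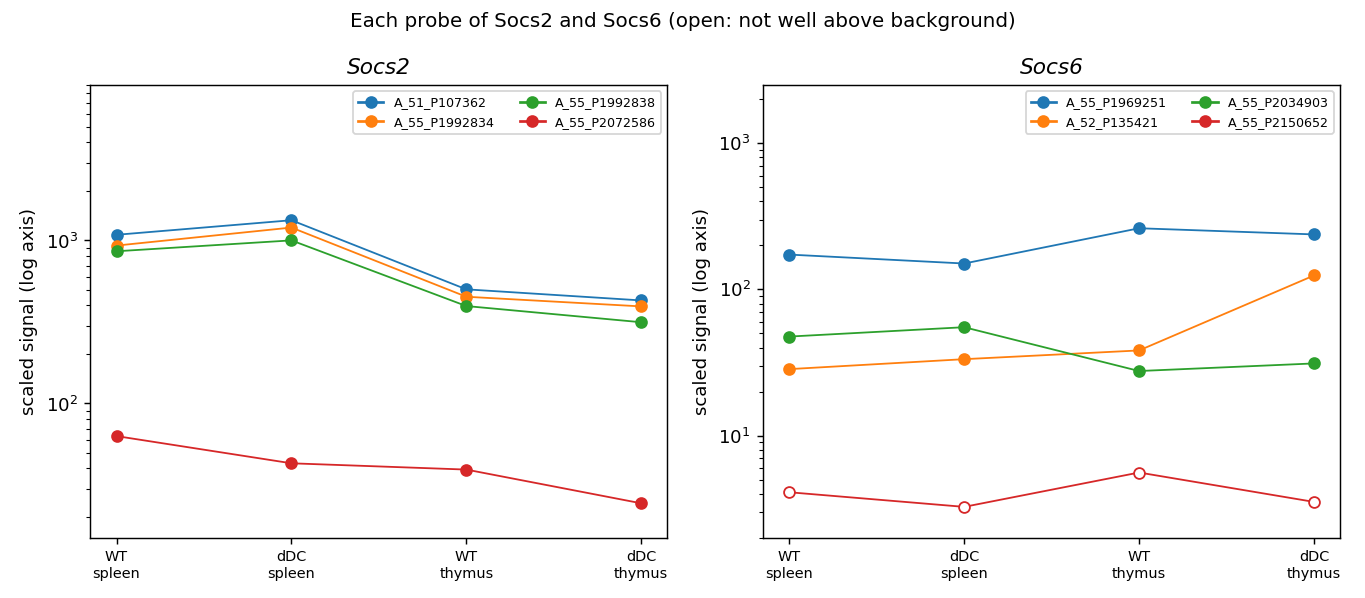
Scaled signal (log axis) of each probe of Socs2 (left) and Socs6 (right) on the 4 arrays; lines join the values of a probe and open symbols are not well above background. The 3 bright Socs2 probes run in parallel, whereas the Socs6 probes cross, with probe A_52_P135421 at 124 on deltaDC thymus.

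The genes around these brakes were read from lists of the pathway. Of all measured genes, 8.18% in spleen and 1.69% in thymus differed by 2-fold between genotypes. Between organs 9.85% did in WT and 10.4% in deltaDC, so a short list may well hold none. The SOCS box works with elongins, a cullin and a RING protein, and none of 6 such genes (Tceb1, Tceb2, Cul5, Cul2, Rnf7 and Rbx1) reached 2-fold in any of the 4 comparisons. The same held for 16 other brakes on JAK-STAT signalling, among them the phosphatases Ptpn2 and Ptpn6. Usp18, which restrains the type I interferon receptor, was the nearest to 2-fold, with a spleen genotype difference of -0.998 ± 0.08 from signals of 4676 in WT and 2341 in deltaDC. Sh2b3, an adaptor that dampens JAK2, was lower in thymus by both comparisons, at -0.79 and -0.74.

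Upstream of the brakes, 11 JAK and STAT genes were measured in every comparison. Stat5a, which like Stat5b encodes a STAT5 factor, was higher in thymus. Its signals were 3329.7 and 2834 on the WT and deltaDC spleen arrays and 6080.3 and 6349.9 on the thymus arrays. Its organ difference was 0.87 in WT and 1.16 in deltaDC, and it was the only gene of the list past 2-fold in any comparison. Stat5b differed by -0.02 and 0.38 and Stat3 by -0.07 and -0.06. Of the cytokine receptors, 2 of 21 measured in WT were at least 2-fold lower in thymus and 0 higher. In deltaDC 5 of 23 were lower and 0 higher. Of all measured genes, 4.5% were lower and 5.35% higher in WT, and 5.48% lower and 4.94% higher in deltaDC. Il10ra, the IL-10 receptor chain, was lower in both, at -1.01 and -1.05, but the WT value was short of 2-fold with normexp, with quantile normalization and in the authors' matrix (-0.95, -0.93 and -0.86), which leaves Il6ra there. Il6ra, the IL-6 receptor, differed by -1.57 in WT and -0.78 in deltaDC, from signals of 43622 and 17850 in spleen (WT and deltaDC) and of 14727 and 10418 in thymus. In deltaDC the other lower receptors were Il12rb1 at -2.23, Il7r at -1.46, Il9r at -1.26 and Il12rb2 at -1.05, of which the last pair came to -0.77 and -0.50 with normexp. The IL-2 receptor chains stayed within 2-fold, with Il2rb at -0.62 and -0.63, Il2ra at -0.04 and 0.71 and Il2rg at 0.00 and -0.43. The list medians were -0.48 and -0.43.

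Lists of other STAT5 and STAT3 targets did not, as groups, run lower in thymus in both genotypes as Socs3, Pim1 and Socs2 did. Of all measured genes, 9.85% in WT and 10.4% in deltaDC differed by 2-fold between organs in either direction. Of 23 further STAT5 targets, 0 differed by 2-fold between organs in WT, and in deltaDC 2 were higher (Bach2 at 1.30 and Myc at 1.18) and 3 lower (Gzmb at -3.50, Prdm1 at -2.02 and Nfil3 at -1.22). The medians of that list were -0.01 and 0.06. The list was not split into genes that STAT5 raises and genes that it lowers, so a median near 0 does not measure STAT5 activity. Of 10 STAT3 targets, 3 were higher in thymus and 1 lower in WT (Ccr6 at 1.64, Ahr at 1.34, Fos at 1.27 and Maf at -1.13). In deltaDC 1 was higher and 5 lower, led by Maf at -2.54 and Il23r at -2.51, and the calls of Fos (1.12) and Rora (-1.001) were lost with normexp (0.95) and with the median over probes (-0.45). Among 12 genes linked to Pim kinases and growth, the limma fit called 1, Mycn (limma adjusted p = 0.0445). Mycn was not well above background on either spleen array and had signals of 239 and 249 in thymus, at least 19.3-fold brighter. It entered the fit only through the thymus arrays, so this p-value rests on spleen values at background. With quantile normalization or the authors' matrix the fit called 0 genes for organ.

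**Figure D5:**
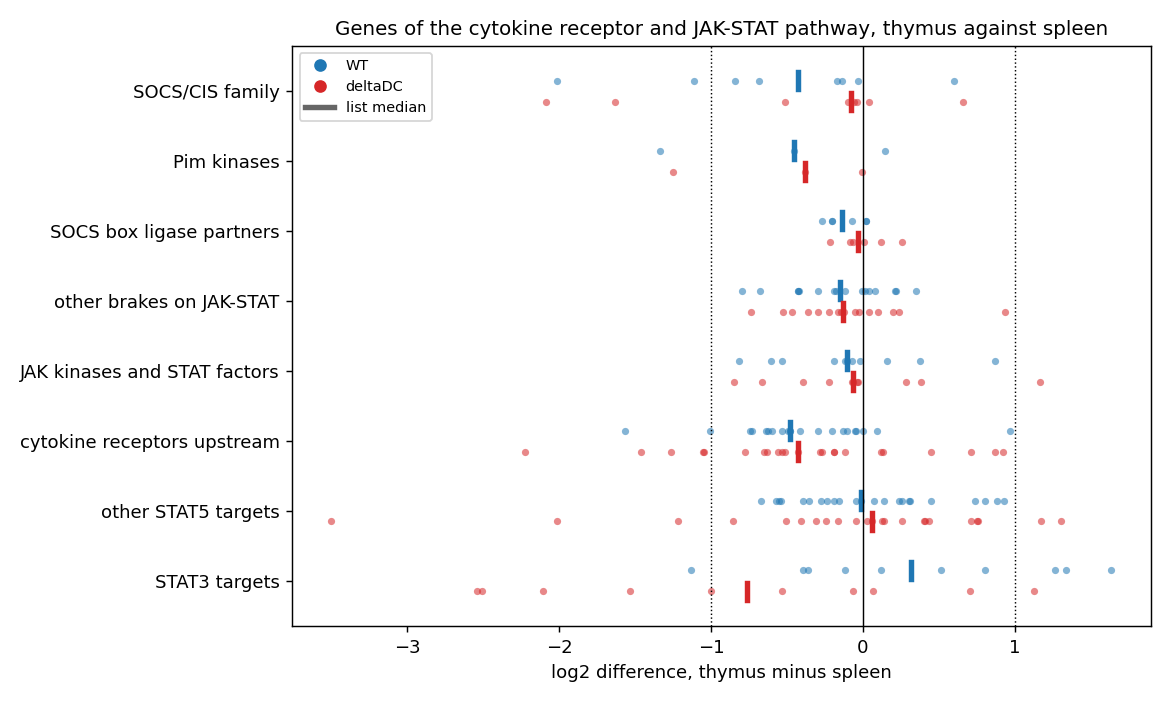
Log2 difference between thymus and spleen for the measured genes of 8 pathway lists, in WT (blue) and deltaDC (red); each dot is a gene, thick bars are list medians and dotted lines mark 2-fold. The cytokine receptor medians lie at -0.48 and -0.43 and those of the other STAT5 targets at -0.01 and 0.06.

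Between genotypes in spleen, no gene in the lists of brakes passed 2-fold, while ligands, receptors and STAT targets did. Of all measured genes, 4.95% were at least 2-fold higher on deltaDC there and 3.23% lower. Among 8 cytokine ligands with a measured pair in spleen, 5 passed 2-fold upward on deltaDC (Il4 at 4.68, Csf2 at 3.82, Il10 at 2.16, Ifng at 1.87 and Il21 at 1.25, the last at 0.60 with normexp). Of the 21 receptors, Il9r was higher at 2.31 and Il12rb1 at 1.43, and Il6ra was lower at -1.29. Of the 23 STAT5 targets, 3 were higher (Gzmb at 3.79, Prdm1 at 1.82 and Gadd45b at 1.10) and 3 lower (Bcl2 at -1.20, Bach2 at -1.02 and Myc at -1.003, the last pair at -0.95 and -0.97 with normexp). Of the 10 STAT3 targets, 5 were higher, among them Il23r at 2.63, Rora at 1.98, Ccr6 at 1.27 and Batf at 1.14, and Fos was lower at -1.76. Rora came to 0.83 with the median over probes. Of the growth-linked genes, the cell cycle inhibitor Cdkn1a was higher at 3.098, from signals of 23.5 in WT and 201 in deltaDC, but had the opposite sign with the median over probes (-1.79). In thymus 0 of the receptors and STAT5 targets reached 2-fold, against 1.69% of all measured genes. Ifng, Fos and Junb were lower there at -1.42, -1.90 and -1.001, the last at -0.97 with normexp. Il4 was higher at 1.02, but at 0.36 with normexp and 0.49 in the authors' matrix.

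The genes whose levels ran most like those of Socs3, Pim1 and Socs2 were taken as those with the smallest distance between centred log2 values over the 4 arrays, among 17329 genes above background on all of them. For Pim1 these were Gm614 (distance 0.06), the long non-coding RNA NEAT1 (0.08) and Zfp781 (0.10). For Socs2 they were Ass1, an enzyme of arginine synthesis (0.10), the granzyme Gzmm (0.10) and Psen2, a gamma-secretase subunit (0.13). For Socs3 they were 2310081J21Rik (0.14), a non-coding RNA probe named by its position on the X chromosome (0.21) and Gm4841 (0.29). Within the set, Pim1 ranked 55 for likeness to Socs2, and Socs2 ranked 81 and Pim1 106 for likeness to Socs3. Likeness over 4 arrays is a description of these arrays only.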

How the data were processed

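Cy3-labelled RNA of the 4 groups was read on 1 slide of 1-colour arrays, per the labels and file headers. Scanner files were deposited with the intensity of each spot from Agilent Feature Extraction 10.7.3.1, background-subtracted and detrended within an array, per the file headers. The authors also deposited a matrix of log2 values, background-subtracted and quantile-normalized per the file headers, with no tool named. Its columns (medians 4.10 for WT spleen, 4.11 for deltaDC spleen, 4.15 for WT thymus and 4.10 for deltaDC thymus) each correlated best across genes with their own scanner array (Pearson r 0.997). Whether an offset was added stays unknown.

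Control spots (3671 of 62976) and outlier-flagged spots (110 to 168 per array) were removed, and 0 spots were saturated. Log2 signals were centred on each array's 75th percentile (340 to 418 in the scanner files). Repeats of a probe were averaged, and the brightest probe on average stood for a gene name, of which 4610 are positions of non-coding RNA probes. A probe was measured where it was well above background, as 48.7% to 50.7% of spots were per array. The spot error is the SD of repeated spots over the root of their number. A probe spotted once took the SD of repeated probes of like signal, from 0.36 log2 units at the dimmest to 0.06 at the brightest. It holds no variation between animals or labellings, and precision is limited by there being 4 arrays. Counts past 2-fold used genes measured on both arrays. Genotype plus organ was fitted in R 4.3.3 by limma 3.58.1 (a two-sided moderated test, Benjamini-Hochberg adjusted) on genes measured on at least 2 arrays. The fit was also run on data simulated with its own estimated variances, which cannot speak to variation between animals.

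A bound for a gene dim in an organ is its bright mean over the higher of its dim signal and the lowest measured signal of each dim array. Named were the 10 genes with all probes, list genes past 2-fold or with the largest differences, and the 3 nearest patterns of genes ranging over at least 1 log2 unit. Usp18 and Sh2b3 stand among the largest of their list. The alternatives were normexp (offset 50), quantile normalization, the authors' matrix, the median over probes, no filter on dim genes, and genes above background on all 4 arrays. The genes and lists were chosen with earlier results of these data known. Some results are not reported here.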

Additional observations from a re-analysis of the deposited data

Results flagged for a closer look

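Socs2 had genotype differences of opposite sign in the organs, each larger than 2 spot errors. It was 0.30 ± 0.03 log2 units higher on deltaDC than on WT in spleen and differed by -0.23 ± 0.03 in thymus, so the genotype differences of the organs were 0.52 ± 0.05 log2 units apart. The other 2 probes of the transcript gave 0.37 and 0.22 in spleen and -0.20 and -0.33 in thymus. The dim probe of another transcript gave -0.55 ± 0.24 and -0.69 ± 0.39. With 1 array per group the difference between organs was not tested, and both values are short of 2-fold.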

How the results depend on the processing

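The 6 differences of at least 2-fold among the 10 genes were Socs2, Socs3 and Pim1 between organs in both genotypes. Of these, 5 stayed past 2-fold under normexp, quantile normalization, the authors' matrix and the median over probes. The exception was Socs2 in WT, at -0.93 in the authors' matrix, which leaves 2 genes there. None of the 34 smaller differences passed 2-fold, and 32 of all 40 kept their sign under all 4 of these alternatives. Over all genes, normexp lowered the counts past 2-fold to 724 (spleen, genotype), 82 (thymus, genotype), 949 (organ, WT) and 1113 (organ, deltaDC), from 1465, 311, 1749 and 1890. Without the filter on dim genes they were 5119, 3040, 5549 and 5600. In the spleen comparison of genotypes, 60.5% of the genes past 2-fold were higher on deltaDC, and 72.5% with normexp. The limma count for organ was 147 (136 higher and 11 lower in thymus), 464 with normexp, 0 with quantile normalization (3750 at an unadjusted p under 0.05), 0 in the authors' matrix (3679) and 0 when a gene had to be above background everywhere (3474). The cause was not tested. Cdkn1a turned sign with the median over probes, from 3.098 to -1.79 between genotypes in spleen and from 3.60 to -1.78 between organs in WT. No paired analysis was possible because each group had 1 array, and for the same reason no replicate could be left out.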
